A study of Gallus gallus with 27 samples.

Results

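DF1 is an established chicken (Gallus gallus) fibroblast line that grows attached to the dish, and SDF1 is its anchorage-independent form, which grows in suspension. The comparison of the 2 states used 6 of the 27 RNA-seq libraries of the series, 3 of SDF1 and 3 of DF1, chosen by their labels. Both are labelled with the breed East Lansing Line 0, as Immortalized Fibroblasts (DF1) and Anchorage-independent Fibroblasts (SDF1). Per the labels the tissue was fibroblasts and the RNA was total RNA. Per the design text each group has 3 biological replicates. The series also holds 2 spontaneously immortalized lines, called lines 2 and 4 here, each grown attached (CF2 and CF4) and in suspension (SCF2 and SCF4). SCF2 and SCF4 carry opposite breeds in 2 label fields, so their breed is uncertain. They were matched to CF2 and CF4 by the number in the sample titles. The labelled route into suspension, written for immortalized lines such as 2 and 4, went through spheroids in microwells, low-attachment dishes with daily disruption and shaker flasks with Pluronic F-68, a surfactant. The labels give no separate route for SDF1. The labels also attach a protocol with oleic acid and soy lecithin to these libraries without saying which received it, so whether DF1 or SDF1 did is not known. The labels do not say whether SDF1 was 1 adapted culture or several, so p-values measure only the spread between these libraries, which may be partly technical. Growth state and the culture history of SDF1 cannot be told apart here.

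Attached fibroblasts hold on to a matrix of collagens, laminins and fibronectin through integrins, which link the outside matrix to actin at focal adhesions and signal through SRC-family and focal adhesion kinases. Loss of that hold normally stops the division of fibroblasts and can start a form of cell death called anoikis. YAP and TAZ, which act with TEAD factors, and SRF, which acts with MRTF, are transcription regulators that respond to spreading and tension. DF1 cells are immortal but otherwise serve as a standard attached fibroblast line in avian virology.

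The values are normalized reads, that is whole reads multiplied by 1 value per library. The DF1 libraries held 16.62 to 17.16 M recovered reads (M, mega) and the SDF1 libraries 24.21 to 25 M, so that 1 read counted as 0.4985 to 0.5528 normalized reads in DF1 and as 0.3553 to 0.3723 in SDF1. Values below are listed in library order, DF1_1, DF1_2, DF1_3 and then SDF1_1, SDF1_2, SDF1_3. A log2 difference is the mean of SDF1 minus that of DF1 on the scale of log2(normalized reads + 1), with its SE and 3 libraries per group. It understates the change of genes with few reads.

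The 3 DF1 libraries were not alike. Over 12055 genes the log2 values of DF1_1 and DF1_2 correlated at r = 0.993, while DF1_3 correlated with them at only 0.93 to 0.934. The SDF1 libraries correlated with each other at 0.997, with DF1_1 and DF1_2 at 0.941 to 0.942 and with DF1_3 at 0.935 to 0.937. By this measure DF1_3 was no closer to DF1_1 and DF1_2 than the SDF1 libraries were. DF1_3 lay more than 2-fold above both other DF1 libraries in 993 genes (8.67% of 11459) and more than 2-fold below both in 1708 (14.9%). In each of the other 5 libraries the same counts were 86 or fewer. SDF1 differed by more than 2-fold from the mean of DF1_1 and DF1_2 in 2698 genes (23.5%) and from DF1_3 in 3494 (30.5%). In 1274 genes (11.1%) SDF1 lay more than 2-fold from both in 1 direction, and in 210 (1.83%) it lay between them, more than 2-fold from each. DF1_3 correlated with the attached lines CF2 and CF4 at 0.939 to 0.949, and DF1_1 and DF1_2 at 0.925 to 0.936. The SDF1 libraries correlated with CF2 and CF4 at 0.949 to 0.954 and with SCF2 and SCF4 at 0.953 to 0.961, above their values with any DF1 library. These correlations run across genes within the same set of libraries and are a description. What sets DF1_3 apart was not tested, so gene levels are given per DF1 library.

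**Figure D1:**
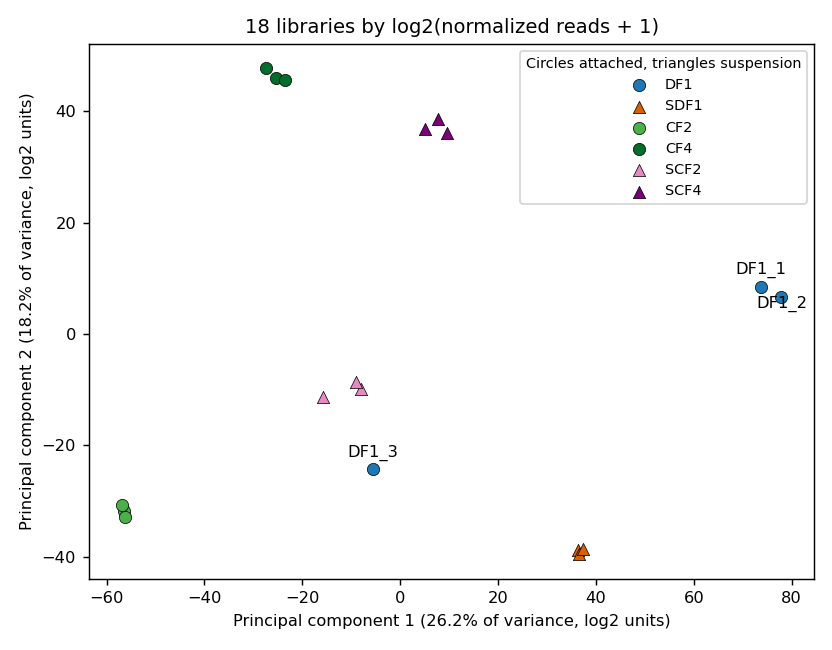
Principal components of log2(normalized reads + 1) in the 18 libraries of DF1, SDF1 and lines 2 and 4, with PC1 on the x axis (26.2% of the variance) and PC2 on the y axis (18.2%). DF1_1 and DF1_2 lie at 73.7 and 77.9 on PC1 and DF1_3 at -5.5, while the 3 SDF1 libraries lie together at 36.4 to 37.4.

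All 14 fibroblast markers listed were present in these 6 libraries. Their summed level was 67820, 74982 and 143192 normalized reads in DF1 and 169105 to 173925 in SDF1, led by COL1A1. Of the markers of other cells, all 8 of skeletal muscle and all 5 of epithelium in the table stayed under 10 normalized reads, with MYF5, MYF6, MYL1 and CLDN1 at 0. Endothelial markers summed to 1484, 1435 and 6479.7 in DF1 and 3756 to 3906 in SDF1, of which ERG, an ETS transcription factor, and CDH5 reached 50. The sum was led by ERG and does not stand for each member. Of 6 tested, 1 (16.7%) was called higher in SDF1 and 2 (33.3%) lower, CDH5 among them. Over all genes these shares were 18.8% and 12.8%. Of the macrophage and leukocyte markers CD74 and MARCO reached 50, and C1QA and C1QB were at 0. Of the neural markers only TUBB3 reached 50. Cartilage and bone markers summed to 114.7, 123.3 and 32.6 in DF1 and 65.1 to 72.2 in SDF1, and only RUNX2 reached 50. Adipocyte markers summed to 51.4, 56.6 and 3.87 in DF1 and 93.4 to 115.1 in SDF1, and only PPARG reached 50. No erythroid marker did. The part of other cell types in the results was not tested. In bulk RNA, fewer cells of a type and less RNA per cell cannot be told apart.

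In all, 3619 of 11459 genes tested (31.6%) passed an adjusted p of 0.05, of which 2153 (18.8%) were higher in SDF1 and 1466 (12.8%) were lower. A gene was tested where at least 3 of the 6 libraries held 1 or more normalized reads, so a gene silent in 1 group passed only through the other. In every called gene the SDF1 libraries did not overlap with the DF1 libraries. Such a separation, called or not, was found in 6175 genes (53.9%), 3555 above (31.0%) and 2620 below (22.9%). The count depended on DF1_3: without that library 8399 genes were called (73.3%), with all 3619 among them. Without DF1_1 or DF1_2 it was 2483 or 2990, and without SDF1_1, SDF1_2 or SDF1_3 it was 1381, 1418 or 1404. In each of these 6 fits 1311 genes (36.2% of those called) passed, 849 higher (7.41%) and 462 lower (4.03%). All these fits take 1 spread per gene from both groups, though the DF1 libraries spread far more than the SDF1 libraries. Their p-values may therefore be too small. Leaving out an SDF1 library gives the DF1 spread more weight, so a call lost that way need not rest on that library. The split between rises and falls also moved with the scaling. Rises were 59.5% of the calls with the deposited scaling, 47.2% after quantile normalization, 49.9% with edgeR and 47.4% with DESeq2 on the recovered reads. The median log2 difference of all genes was 0.090, -0.049, -0.034 and -0.085 in these fits. A gene called below held its call in each fit that left out 1 library unless the loss is given beside it, and where a log2 difference stands without a p, the adjusted p was below 0.05. For each list of genes, the rises and falls are given in that order, also for the fit without DF1_3 and for the genes held in all 6 fits that left out 1 library. Over all genes the shares were 18.8% and 12.8% in the fit of 6 libraries, 39.7% and 33.6% without DF1_3, and 7.41% and 4.03% in all 6 fits, and each pair of counts is to be read against its own.

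The largest rises were more than 4 log2 units. FOS, the DNA-binding partner of JUN in the AP-1 transcription factor, stood at 56.8, 57.1 and 41.5 in DF1 and 3010.1, 3315 and 3298 in SDF1 (log2 difference 5.94 ± 0.15, adjusted p = 8.88e-05), a ratio of the group means of 61.9. S100A4, a calcium-binding protein of motile fibroblasts, stood at 8.97, 8.99 and 7.74 in DF1 and 488, 509.8 and 484 in SDF1 (log2 difference 5.70 ± 0.14, adjusted p = 7.88e-05). SYNPO2, an actin-bundling protein of the synaptopodin family, stood at 1.5, 2.65 and 2.21 in DF1 and 160.1, 169.8 and 169 in SDF1 (log2 difference 5.76 ± 0.22, adjusted p = 3.53e-04). In all 3 genes every DF1 library, DF1_3 included, was far below SDF1. CKS1B, which binds cyclin-dependent kinases, stood at 0.997, 0 and 5.53 in DF1 and 241, 227 and 234 in SDF1 (log2 difference 6.64 ± 0.68, adjusted p = 0.00233). TUBB3, a beta-tubulin best known from neurons, stood at 1.99, 3.7 and 11.6 in DF1 and 361, 364 and 360.0 in SDF1 (log2 difference 6.01 ± 0.53, adjusted p = 0.0015). CSF2RA, a chain of the receptor for granulocyte-macrophage colony-stimulating factor, stood at 1.99, 6.88 and 27.6 in DF1 and 268, 279 and 256 in SDF1 (log2 difference 4.94 ± 0.80, adjusted p = 0.00796). DF1_3 was the highest DF1 library in these 3, yet far from SDF1.

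The other large rises follow. GSTA3, a glutathione transferase, stood at 6.48, 7.94 and 2.76 in DF1 and 209.6, 205 and 229.7 in SDF1 (log2 difference 5.09 ± 0.35, adjusted p = 0.00101). CYP24A1, the hydroxylase that inactivates vitamin D, stood at 5.48, 4.76 and 18.2 in DF1 and 215, 224 and 213 in SDF1 (log2 difference 4.61 ± 0.48, adjusted p = 0.00246). ADH6, an alcohol dehydrogenase, stood at 0, 1.59 and 0 in DF1 and 69.1, 65.7 and 68.5 in SDF1 (log2 difference 5.65 ± 0.43, adjusted p = 0.00124). Its DF1 value rested on 3 reads over the group against 559, a ratio of 129 per normalized read with a 95% counting interval of 43.9 to 627. ADH1C, another alcohol dehydrogenase, stood at 93.7, 79.9 and 3.32 in DF1 and 1402, 1354 and 1411 in SDF1 (log2 difference 5.44 ± 1.21, adjusted p = 0.0211), and its call was lost without SDF1_1, SDF1_2 or SDF1_3 (adjusted p = 0.0796, 0.0779 and 0.0801). DF1_3 was the lowest library for ADH1C. CRYBA1, a beta-crystallin, stood at 2.49, 2.12 and 17.7 in DF1 and 173, 174 and 159.7 in SDF1 (log2 difference 4.85 ± 0.71, adjusted p = 0.00594). C6H10orf107 stood at 19.9, 13.8 and 7.19 in DF1 and 352, 353 and 362 in SDF1 (log2 difference 4.71 ± 0.35, adjusted p = 0.00121).

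The falls were led by genes with few reads in SDF1. CDH5, the cadherin of endothelial junctions, stood at 139, 159 and 2453 in DF1 and 3.64, 4.97 and 3.35 in SDF1 (log2 difference -6.27 ± 1.14, adjusted p = 0.0112), with the call lost without SDF1_1, SDF1_2 or SDF1_3 (adjusted p = 0.0541, 0.0503 and 0.0556). COL8A1, a short-chain collagen, stood at 202, 213 and 2411 in DF1 and 3.64, 4.26 and 5.21 in SDF1 (log2 difference -6.47 ± 0.99, adjusted p = 0.0068). FGD5, an exchange factor for CDC42, stood at 73.3, 76.2 and 312 in DF1 and 0.364, 0.355 and 0.745 in SDF1 (log2 difference -6.36 ± 0.61, adjusted p = 0.00184). DF1_3 was the highest library in all 3, and DF1_1 and DF1_2 still lay far above SDF1. PLXND1, a semaphorin receptor, stood at 198, 201 and 185 in DF1 and 1.46, 1.07 and 2.98 in SDF1 (log2 difference -6.17 ± 0.29, adjusted p = 6.54e-04). CHMP4C, a subunit of the membrane-cutting ESCRT-III complex, stood at 157, 173 and 90.7 in DF1 and 0.728, 1.78 and 1.49 in SDF1 (log2 difference -5.89 ± 0.35, adjusted p = 7.85e-04). PDLIM4, an adaptor on actin fibres, stood at 121, 104 and 63.6 in DF1 and 2.18, 2.13 and 1.12 in SDF1 (log2 difference -5.09 ± 0.34, adjusted p = 9.26e-04). In these the 3 DF1 libraries lay within 2-fold of one another.

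The other large falls included transport, modification and signalling genes. NR2C2, an orphan nuclear receptor, stood at 90.7, 75.1 and 78.5 in DF1 and 1.46, 2.49 and 0.745 in SDF1 (log2 difference -5.06 ± 0.31, adjusted p = 8.25e-04). VSIG10L, a member of the immunoglobulin superfamily, stood at 47.9, 40.7 and 97.9 in DF1 and 0.364, 1.07 and 0 in SDF1 (log2 difference -5.38 ± 0.45, adjusted p = 0.00141). TPST2, which sulfates tyrosines of secreted proteins, stood at 89.2, 105 and 37 in DF1 and 0.364, 0.355 and 0 in SDF1 (log2 difference -5.86 ± 0.45, adjusted p = 0.00125). It had 2 reads over the SDF1 libraries against 445, a ratio of 322 (interval 88.5 to 2665). SLC25A15, the mitochondrial ornithine carrier, stood at 89.2, 91 and 7.74 in DF1 and 0.364, 0 and 0 in SDF1 (log2 difference -5.23 ± 0.97, adjusted p = 0.012), and the call was lost without SDF1_1, SDF1_2 or SDF1_3 (adjusted p = 0.0521, 0.0567 and 0.0577). It had 1 read in SDF1 against 365, a ratio of 528 (interval 94.1 to 20903). EDNRB2, an endothelin receptor of birds, stood at 411, 450.3 and 15.5 in DF1 and 3.64, 1.42 and 1.86 in SDF1 (log2 difference -5.51 ± 1.34, adjusted p = 0.0276), lost without DF1_1, DF1_2, SDF1_1, SDF1_2 or SDF1_3 (adjusted p = 0.0889, 0.0784, 0.0835, 0.0991 and 0.098). ZNF423, a zinc finger factor, stood at 267, 295 and 27.1 in DF1 and 2.91, 3.2 and 1.12 in SDF1 (log2 difference -5.32 ± 0.98, adjusted p = 0.0116), lost without SDF1_1 or SDF1_3 (adjusted p = 0.0517 and 0.0577). In SLC25A15, EDNRB2 and ZNF423 DF1_3 lay well below DF1_1 and DF1_2.

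**Figure D2:**
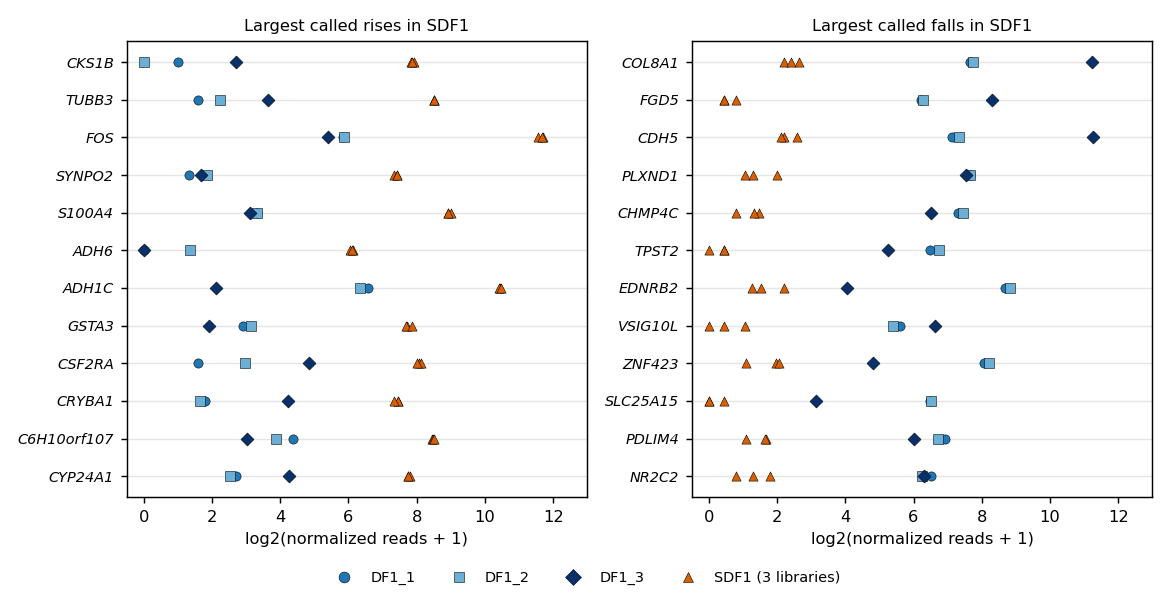
The 12 largest called rises (left) and falls (right) in SDF1, each gene a row, with log2(normalized reads + 1) on the x axis and 1 symbol per library. The SDF1 triangles stay apart from all DF1 symbols in each row, while DF1_3 (dark diamond) lies away from the other 2 DF1 libraries in COL8A1, CDH5, EDNRB2 and ZNF423, among others.

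Collagen chains rose more often than the background. Of the collagen chains (41 listed, 31 in the table and 19 past the filter) 12 of 19 tested members (63.2%) rose and 1 (5.26%) fell, with a median log2 difference of 1.32. Against DF1_1, DF1_2 and DF1_3 that median was 1.21, 1.43 and 1.02. The counts were 15 and 2 without DF1_3, and 8 and 1 in all 6 fits. COL1A1, the main chain of type I collagen, stood at 10272, 11794 and 26019.5 in DF1 and 77336, 75641 and 80913 in SDF1 (log2 difference 2.41 ± 0.36, adjusted p = 0.00636). COL5A1, which sets the width of collagen fibrils, stood at 768, 798 and 1327 in DF1 and 4456, 4618 and 4155 in SDF1 (log2 difference 2.24 ± 0.23, adjusted p = 0.00226). The microfibrillar chain COL6A3 stood at 8918, 9301 and 10929.5 in DF1 and 20499, 20547 and 20966 in SDF1 (log2 difference 1.09 ± 0.12), and its partner COL6A2 at 15123, 17103 and 15496 in DF1 and 31136, 31134 and 31640.0 in SDF1 (log2 difference 0.98 ± 0.11). COL17A1, a membrane-spanning collagen, stood at 24.9, 29.1 and 21.6 in DF1 and 75, 88.8 and 82.6 in SDF1 (log2 difference 1.67 ± 0.19). DF1_3 was the highest DF1 library for COL1A1, COL5A1 and COL6A3 and still lay well below every SDF1 library. COL1A2, the partner chain of COL1A1, stood at 4322, 5253 and 8043 in DF1 and 13967, 14187 and 14356 in SDF1 (log2 difference 1.32 ± 0.24, adjusted p = 0.0109), with the call lost without SDF1_1, SDF1_2 or SDF1_3 (adjusted p = 0.0541, 0.0541 and 0.0564). COL3A1, of type III collagen, stood at 8236, 8541 and 3192 in DF1 and 23394, 24117 and 23583 in SDF1 (log2 difference 1.96 ± 0.40, adjusted p = 0.0158), with the call lost without SDF1_1, SDF1_2 or SDF1_3 (adjusted p = 0.0663, 0.0674 and 0.0668). COL8A1, given above, was the 1 chain that fell.

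Enzymes that build and trim collagen were at or below the background in the fit of 6 libraries. For collagen processing (27 listed, 23 in the table and 22 past the filter) 4 of 22 tested members (18.2%) rose and 1 (4.55%) fell, and the counts were 14 and 2 without DF1_3, and 2 and 0 in all 6 fits. P4HA3, a prolyl hydroxylase subunit, stood at 1374, 1634 and 913 in DF1 and 3658, 3548 and 3785 in SDF1 (log2 difference 1.53 ± 0.22, adjusted p = 0.0057). ADAMTS2, which removes the N-propeptide of procollagen, stood at 275, 264 and 146 in DF1 and 688, 651 and 685 in SDF1 (log2 difference 1.61 ± 0.26). LOXL2, which cross-links collagen, stood at 882, 895 and 625 in DF1 and 1599, 1533 and 1516 in SDF1 (log2 difference 0.97 ± 0.16, adjusted p = 0.00835), and its call was lost without SDF1_1 (adjusted p = 0.0501). For matrix glycoproteins (58 listed, 47 in the table and 39 past the filter) 8 of 39 tested members (20.5%) rose and 3 (7.69%) fell, against 16 and 10 without DF1_3, and 4 and 0 in all 6 fits. The smallest p-values belonged to laminin chains. LAMA5 stood at 2480.3, 2579 and 4181 in DF1 and 10889.8, 10071 and 11051 in SDF1 (log2 difference 1.83 ± 0.22), LAMB2 at 225, 258 and 286 in DF1 and 531, 539 and 555 in SDF1 (log2 difference 1.08 ± 0.12, adjusted p = 0.00251) and LAMC1 at 2267, 2543 and 2335 in DF1 and 4364, 4112 and 4389 in SDF1 (log2 difference 0.85 ± 0.092). These are the 3 kinds of chain that make up a laminin trimer. THBS4, a thrombospondin, had no read in DF1 and 2.55, 3.55 and 3.72 normalized reads in SDF1. FN1, which encodes fibronectin, was not called, at 15778, 16821 and 24555 in DF1 and 13809.6, 15565 and 15177 in SDF1 (log2 difference -0.33 ± 0.20, adjusted p = 0.247). SPARC, a collagen-binding glycoprotein, was not called either, at 7015, 8160.4 and 11681 in DF1 and 11386, 11215 and 11244 in SDF1 (log2 difference 0.37 ± 0.20, adjusted p = 0.221), with DF1_3 level with SDF1.

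Among proteoglycans the rises depended on DF1_3. In the fit of 6 libraries they were near the share of 18.8% of all genes, and without DF1_3 they were above that fit's share of 39.7%. No rise and 1 fall held in all 6 fits, where 7.41% and 4.03% of all genes did. For the core proteins (34 listed, 30 in the table and 21 past the filter) 5 of 21 tested members (23.8%) rose and 2 (9.52%) fell, and the counts were 14 and 4 without DF1_3, and 0 and 1 in all 6 fits. GPC1, a glypican that carries heparan sulfate at the cell surface, fell, at 101, 107.4 and 40.9 in DF1 and 5.46, 2.84 and 1.86 in SDF1 (log2 difference -4.22 ± 0.50, adjusted p = 0.00333). LUM, the small collagen-binding proteoglycan lumican, stood at 880.4, 780.4 and 2474 in DF1 and 4354, 4387 and 4417 in SDF1 (log2 difference 1.88 ± 0.45, adjusted p = 0.0258), and its call was lost without DF1_1, DF1_2, SDF1_1, SDF1_2 or SDF1_3 (adjusted p = 0.0862, 0.0689, 0.0904, 0.0902 and 0.0921) and with edgeR (adjusted p = 0.0544). DCN, the related decorin, was not called, at 55.3, 53.4 and 5039.6 in DF1 and 6186, 6123 and 6113 in SDF1 (log2 difference 4.62 ± 1.81, adjusted p = 0.106). DF1_1 and DF1_2 were low there, and DF1_3 lay near SDF1.

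Matrix proteases and their inhibitors rose more often than the background. For matrix proteases and their inhibitors (49 listed, 40 in the table and 34 past the filter) 14 of 34 tested members (41.2%) rose and 0 (0%) fell, with a median log2 difference of 0.93 and of 0.82, 0.79 and 0.92 against DF1_1, DF1_2 and DF1_3. The counts were 21 and 5 without DF1_3, and 6 and 0 in all 6 fits. The 4 members with the smallest p were all ADAMTS proteases, a family with members that cut proteoglycans. ADAMTS8 stood at 23.9, 20.6 and 42.6 in DF1 and 309.7, 285 and 324 in SDF1 (log2 difference 3.42 ± 0.28, adjusted p = 0.0014) and ADAMTS7 at 62.3, 70.4 and 29.9 in DF1 and 346, 320.1 and 351 in SDF1 (log2 difference 2.71 ± 0.33). ADAMTS20 stood at 4.99, 6.35 and 11.1 in DF1 and 41.1, 47.6 and 45.8 in SDF1 (log2 difference 2.50 ± 0.31). ADAMTS15 stood at 0, 0 and 0.553 in DF1 and 25.8, 23.1 and 23.8 in SDF1 (log2 difference 4.45 ± 0.28), where DF1 had 1 read over the group against 200, a ratio of 138 (interval 24.5 to 5490.0). MMP2, an abundant gelatinase, was not called, at 15041, 14083 and 60744 in DF1 and 47018, 46987 and 47536 in SDF1 (log2 difference 1.01 ± 0.58, adjusted p = 0.239). DF1_3 lay above SDF1 there, and DF1_1 and DF1_2 well below.

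Genes of integrins and focal adhesions rose more often than the background. Of this list (57 listed, 50 in the table and 48 past the filter) 17 of 48 tested members (35.4%) rose and 2 (4.17%) fell, and the counts were 34 and 9 without DF1_3, and 10 and 1 in all 6 fits. The median log2 difference was 0.70, and 0.83, 0.67 and 0.32 against the 3 DF1 libraries in order. TNS2, a tensin that ties integrin tails to actin, stood at 109, 108 and 105 in DF1 and 635, 671 and 631 in SDF1 (log2 difference 2.58 ± 0.090, adjusted p = 2.83e-04), with DF1 libraries almost equal. The alpha chains ITGA3, a laminin receptor, and ITGA4, a receptor for fibronectin and VCAM1, stood at 4903, 6295 and 7753 in DF1 and 28795, 27962 and 30366 in SDF1 (log2 difference 2.22 ± 0.19) and at 3303, 2948 and 3404 in DF1 and 8597, 8422 and 8646 in SDF1 (log2 difference 1.41 ± 0.098). SRC, the tyrosine kinase of focal adhesions, stood at 413, 485 and 379.8 in DF1 and 1024, 1021 and 1094 in SDF1 (log2 difference 1.30 ± 0.12). FLNA, which cross-links actin, stood at 863, 1097 and 1326 in DF1 and 3679, 3556 and 3793 in SDF1 (log2 difference 1.77 ± 0.17). Each of these was lower in all 3 DF1 libraries than in SDF1. NEDD9, a docking protein of the same sites, fell, at 199, 228 and 269 in DF1 and 42.9, 42.6 and 36.5 in SDF1 (log2 difference -2.47 ± 0.17). Several well-known members were not called, and in these DF1_3 lay near or above SDF1. ITGB1, the common beta chain, stood at 8159, 7267 and 16179 in DF1 and 13581, 13002 and 13250.5 in SDF1 (log2 difference 0.43 ± 0.31, adjusted p = 0.341), ITGAV, the alpha chain of vitronectin receptors, at 2508, 2064 and 9339 in DF1 and 10120.5, 10038 and 10057 in SDF1 (log2 difference 1.47 ± 0.57, adjusted p = 0.107), and VCL, which encodes vinculin, at 1378, 1379.9 and 3014 in DF1 and 3109, 3018 and 3175 in SDF1 (log2 difference 0.79 ± 0.32, adjusted p = 0.117).

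Genes of cell-cell adhesion had calls in both directions. For cadherins and catenins (56 listed, 49 in the table and 25 past the filter) 3 of 25 tested members (12%) rose and 4 (16%) fell, and the counts were 10 and 7 without DF1_3, and 0 and 2 in all 6 fits. CTNNB1, which encodes beta-catenin, stood at 4179, 4518 and 3927 in DF1 and 2589, 2551 and 2647 in SDF1 (log2 difference -0.69 ± 0.093, adjusted p = 0.00439). CDH6 fell from 16, 15.9 and 33.2 to 0, 1.07 and 0 (log2 difference -4.07 ± 0.46), with 3 reads left over the SDF1 libraries against 122, a ratio of 58.8 (interval 19.7 to 289). CDH2, the cadherin typical of fibroblasts, was not called, at 2781, 2692 and 13142 in DF1 and 7744, 7797 and 7625 in SDF1 (log2 difference 0.74 ± 0.63, adjusted p = 0.413). For immunoglobulin-type and other adhesion proteins (57 listed, 45 in the table and 27 past the filter) 6 of 27 tested members (22.2%) rose and 3 (11.1%) fell, and the counts were 13 and 4 without DF1_3, and 3 and 1 in all 6 fits. JAM3, a junctional adhesion molecule, stood at 922, 929 and 798 in DF1 and 3149, 3193 and 3191 in SDF1 (log2 difference 1.85 ± 0.095, adjusted p = 6.91e-04). CLMP, an adhesion molecule of the same family, stood at 1651, 1749 and 2121 in DF1 and 8591, 8575 and 8705 in SDF1 (log2 difference 2.24 ± 0.12). The ratios of the group means were 3.6 and 4.69, and the DF1 libraries lay close together. LSAMP, a GPI-anchored adhesion molecule of neurons, fell, at 11.5, 18.5 and 9.4 in DF1 and 1.09, 1.78 and 1.86 in SDF1 (log2 difference -2.42 ± 0.33).

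In the fit of 6 libraries the contractile and actin list (62 listed, 55 in the table and 44 past the filter) was close to the background. There 6 of 44 tested members (13.6%) rose and 5 (11.4%) fell, and 4 and 1 did in all 6 fits. Without DF1_3 the counts were 24 and 14, with rises above the share of 39.7% of all genes. The list's median log2 difference was 0.14, and -0.032 after quantile normalization. Against DF1_1, DF1_2 and DF1_3 it was 0.29, 0.29 and -0.18, so its direction depends on the DF1 library and the scaling. SYNPO, an actin-associated protein related to SYNPO2, stood at 404, 525 and 551 in DF1 and 1827, 1744 and 1879 in SDF1 (log2 difference 1.89 ± 0.14, adjusted p = 0.00116). CAPG, which caps actin filaments, stood at 558, 714 and 518 in DF1 and 1679, 1668 and 1726 in SDF1 (log2 difference 1.52 ± 0.14). FHL1, a LIM protein, fell, at 39.9, 34.9 and 35.9 in DF1 and 12.4, 13.1 and 9.31 in SDF1 (log2 difference -1.60 ± 0.22). ACTA2, smooth muscle actin, stood at 3443, 3345 and 12015 in DF1 and 10591, 10458 and 10696 in SDF1 (log2 difference 1.03 ± 0.51, adjusted p = 0.182) and was not called. TAGLN, a calponin-like protein of contractile cells, stood at 799, 967 and 90.1 in DF1 and 223, 226 and 243 in SDF1 (log2 difference -0.84 ± 0.91, adjusted p = 0.524). SDF1 was below DF1_1 and DF1_2 and above DF1_3 for TAGLN.

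For targets and parts of the YAP, TEAD and SRF system (52 listed, 46 in the table and 44 past the filter) 11 of 44 tested members (25%) rose and 1 (2.27%) fell, and the counts were 19 and 15 without DF1_3, and 4 and 0 in all 6 fits, with medians of 0.0028, -0.013 and 0.41 against DF1_1, DF1_2 and DF1_3. WWTR1, which encodes TAZ, stood at 261, 272 and 230.0 in DF1 and 405, 386 and 419 in SDF1 (log2 difference 0.67 ± 0.11, adjusted p = 0.00735), and its call was lost without SDF1_1 or SDF1_3 (adjusted p = 0.0518 and 0.0536). ARHGEF17, a guanine nucleotide exchange factor, stood at 784, 991 and 754 in DF1 and 2339, 2196 and 2413 in SDF1 (log2 difference 1.47 ± 0.13, adjusted p = 0.0015). ASAP1, which acts on ARF at adhesions, stood at 836, 779.9 and 619 in DF1 and 1450.5, 1454 and 1389 in SDF1 (log2 difference 0.95 ± 0.13). CYR61, a secreted matrix protein and classical YAP target, was not called, at 1745, 1779.9 and 5385 in DF1 and 1109, 1135 and 1092 in SDF1 (log2 difference -1.20 ± 0.45, adjusted p = 0.0974). Every SDF1 library was below every DF1 library for CYR61.

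**Figure D3:**
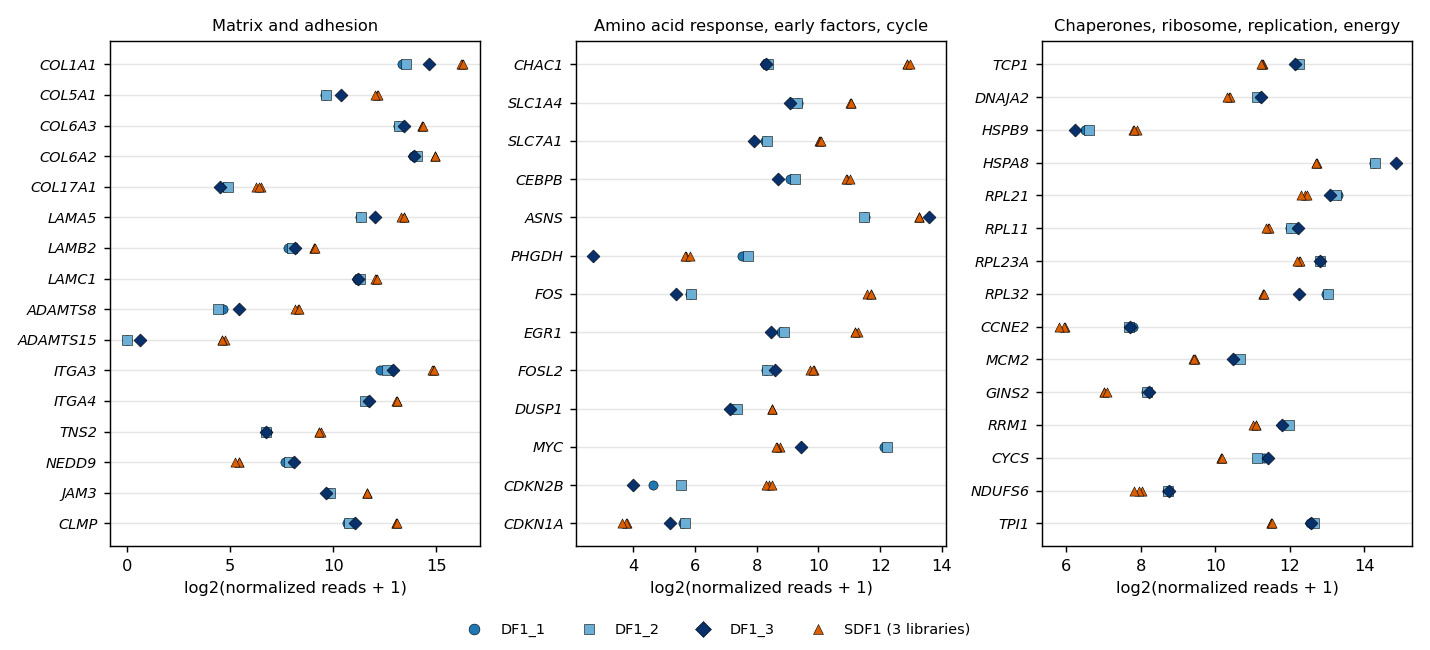
Levels of members of the matrix, adhesion, amino acid, early response, cycle, chaperone, ribosomal and replication lists, with log2(normalized reads + 1) on the x axis and 1 symbol per library. COL1A1, CHAC1 and FOS lie far to the right in SDF1 and TCP1, RPL32 and MCM2 to the left, while ASNS and PHGDH show DF1_3 on the other side of SDF1 from DF1_1 and DF1_2.

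For TGF-beta and BMP signalling (63 listed, 57 in the table and 43 past the filter) 12 of 43 tested members (27.9%) rose and 4 (9.3%) fell, and the counts were 21 and 11 without DF1_3, and 6 and 1 in all 6 fits. The rises held both transducers and repressors. SMAD3, which carries the TGF-beta signal, stood at 264, 298 and 402 in DF1 and 871, 817 and 892 in SDF1 (log2 difference 1.44 ± 0.17). Its repressor TGIF1 stood at 452, 522 and 485 in DF1 and 1934, 1867 and 1936 in SDF1 (log2 difference 1.98 ± 0.090, adjusted p = 6.51e-04), and SKI, another repressor, at 178, 167 and 191 in DF1 and 404, 415 and 409.9 in SDF1 (log2 difference 1.19 ± 0.097). SMURF1, a ubiquitin ligase for SMADs, stood at 179, 166 and 192 in DF1 and 419, 458 and 442 in SDF1 (log2 difference 1.29 ± 0.10). Wnt genes were near the background. For Wnt signalling (70 listed, 62 in the table and 42 past the filter) 9 of 42 tested members (21.4%) rose and 4 (9.52%) fell, and the counts were 17 and 18 without DF1_3, and 2 and 1 in all 6 fits, with a median of 0.13, or -0.072 after quantile normalization, so its sign depends on the scaling. KREMEN1, a coreceptor for the Wnt inhibitor DKK1, fell, at 226, 232 and 243 in DF1 and 36.8, 46.5 and 42.1 in SDF1 (log2 difference -2.46 ± 0.14, adjusted p = 7.58e-04). FZD7, a frizzled receptor, rose, at 113, 144 and 143 in DF1 and 451, 420.3 and 477 in SDF1 (log2 difference 1.76 ± 0.14).

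Of the receptor tyrosine kinases and their ligands (93 listed, 87 in the table and 63 past the filter) 19 of 63 tested members (30.2%) rose and 3 (4.76%) fell, and the counts were 36 and 13 without DF1_3, and 9 and 0 in all 6 fits. EPHA4, an ephrin receptor, stood at 259.7, 277 and 279.7 in DF1 and 940.3, 926 and 953 in SDF1 (log2 difference 1.79 ± 0.084, adjusted p = 6.54e-04), and the ephrin EFNB1 at 699, 733 and 823 in DF1 and 1625, 1579.9 and 1641 in SDF1 (log2 difference 1.11 ± 0.095). VEGFA, the vascular growth factor, stood at 762, 728 and 841 in DF1 and 1528, 1537 and 1497 in SDF1 (log2 difference 0.97 ± 0.090). PDGFRB, the platelet-derived growth factor receptor of fibroblasts, stood at 849.5, 888 and 678 in DF1 and 1629.5, 1577 and 1600.1 in SDF1 (log2 difference 1.001 ± 0.12). Its relative PDGFRA was low in all 6 libraries and rose, at 2.49, 3.7 and 7.19 in DF1 and 38.9, 37.3 and 34.2 in SDF1 (log2 difference 2.88 ± 0.36). The DF1 libraries were close together in EPHA4, EFNB1, VEGFA and PDGFRB.

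Several immediate early genes rose beside FOS. Of MYC, its network and the early factors (50 listed, 40 in the table and 39 past the filter) 14 of 39 tested members (35.9%) rose and 3 (7.69%) fell, and the counts were 24 and 7 without DF1_3, and 8 and 1 in all 6 fits. The median log2 difference was 0.56, and 0.52, 0.35 and 0.45 against DF1_1, DF1_2 and DF1_3. EGR1, a zinc finger factor induced within minutes by growth factors, stood at 442, 474 and 354 in DF1 and 2311, 2466 and 2341 in SDF1 (log2 difference 2.49 ± 0.13, adjusted p = 7.39e-04). FOSL2 and JUN, which form AP-1 dimers, stood at 314, 319 and 383 in DF1 and 922, 843 and 914 in SDF1 (log2 difference 1.40 ± 0.11) and 2114, 2134 and 1545 in DF1 and 5609, 5312 and 5439 in SDF1 (log2 difference 1.51 ± 0.15, adjusted p = 0.00209). DUSP1, a phosphatase that turns off MAP kinases, stood at 151, 163 and 141 in DF1 and 358, 358 and 359 in SDF1 (log2 difference 1.24 ± 0.10). DF1_3 lay within 2-fold of the other DF1 libraries in all of these. MYC itself fell, at 4489, 4813 and 698 in DF1 and 428, 408 and 395 in SDF1 (log2 difference -2.59 ± 0.76, adjusted p = 0.0493), but its call was lost without DF1_1, DF1_2, SDF1_1, SDF1_2 or SDF1_3 (adjusted p = 0.141, 0.127, 0.136, 0.139 and 0.143), and also with no filter (adjusted p = 0.0542), a pseudocount of 0.1 (0.0511) or equal library totals (0.0575). For MYC, DF1_3 was far below DF1_1 and DF1_2 and still above SDF1.

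Cytokine genes were near the background. For inflammatory and growth cytokines (46 listed, 40 in the table and 32 past the filter) 6 of 32 tested members (18.8%) rose and 2 (6.25%) fell, and the counts were 15 and 9 without DF1_3, and 2 and 0 in all 6 fits. IL6ST, the shared receptor chain gp130, stood at 289, 274 and 290.2 in DF1 and 665, 658 and 675 in SDF1 (log2 difference 1.22 ± 0.083, adjusted p = 9.26e-04) and LIFR, which pairs with it, at 67.8, 65.1 and 58.6 in DF1 and 142, 148 and 153 in SDF1 (log2 difference 1.20 ± 0.13). SOCS3, the feedback inhibitor that gp130 induces, stood at 130.1, 149 and 99.5 in DF1 and 430.5, 450.5 and 470.2 in SDF1 (log2 difference 1.85 ± 0.17). SOCS3 was listed with interferon and antiviral genes (60 listed, 52 in the table and 44 past the filter), of which 10 of 44 tested members (22.7%) rose and 1 (2.27%) fell. The counts there were 26 and 5 without DF1_3, and 6 and 0 in all 6 fits. SOCS1, which inhibits interferon receptors, stood at 276, 292 and 282 in DF1 and 678, 681 and 680.2 in SDF1 (log2 difference 1.26 ± 0.082, adjusted p = 8.86e-04). TLR21, a receptor for CpG DNA in birds, stood at 167, 196 and 200.1 in DF1 and 695, 696 and 732 in SDF1 (log2 difference 1.91 ± 0.11). TAP1, which carries peptides to MHC class I, stood at 63.8, 89.9 and 58 in DF1 and 288, 277 and 319.8 in SDF1 (log2 difference 2.07 ± 0.19). All 4 were at least 2-fold apart in the ratio of means, and every DF1 library lay below SDF1.

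Genes that respond to a shortage of amino acids rose more often than the background. When amino acids or protein folding fail, kinases of the eIF2alpha pathway raise translation of ATF4, which then induces transporters and synthesis enzymes for amino acids. Of this list (58 listed, 46 in the table and 45 past the filter) 25 of 45 tested members (55.6%) rose and 2 (4.44%) fell, with a median log2 difference of 0.96, and of 0.98, 0.90 and 0.83 against the 3 DF1 libraries. The counts were 33 and 7 without DF1_3, and 14 and 0 in all 6 fits. CHAC1, which degrades glutathione and is a sensitive target of the pathway, stood at 308, 331 and 318 in DF1 and 7451, 7377 and 7906 in SDF1 (log2 difference 4.57 ± 0.083, adjusted p = 3.79e-05), with a ratio of means of 23.8. The amino acid transporter SLC1A4 stood at 647, 633 and 545 in DF1 and 2122, 2057 and 2137 in SDF1 (log2 difference 1.79 ± 0.099, adjusted p = 7.58e-04), and SLC7A1, which carries arginine and lysine, at 306, 323 and 240.5 in DF1 and 1044, 1070.5 and 1082 in SDF1 (log2 difference 1.89 ± 0.13). SLC38A2, a carrier of neutral amino acids, stood at 3112, 2739.7 and 2943 in DF1 and 5934, 6266 and 5964 in SDF1 (log2 difference 1.05 ± 0.094). CEBPB, a factor that dimerizes with ATF4, stood at 537, 598 and 411 in DF1 and 1954, 1906 and 2097 in SDF1 (log2 difference 1.96 ± 0.16). GPT2, a mitochondrial transaminase, stood at 31.4, 46 and 57.5 in DF1 and 269, 276 and 299 in SDF1 (log2 difference 2.66 ± 0.24). All 3 DF1 libraries were below SDF1 in each of these, and DF1_3 lay among or near the others.

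For other members of the pathway DF1_3 lay apart. ATF4 stood at 6038, 6450.4 and 10869 in DF1 and 11215, 11273 and 10805 in SDF1 (log2 difference 0.56 ± 0.24, adjusted p = 0.131), with DF1_3 level with SDF1. ASNS, asparagine synthetase, stood at 2889, 2864 and 12334 in DF1 and 9818, 9793 and 9712 in SDF1 (log2 difference 1.06 ± 0.59, adjusted p = 0.223), with DF1_3 above SDF1. PHGDH, the entry enzyme of serine synthesis, stood at 184, 212 and 5.53 in DF1 and 51.7, 50.1 and 57 in SDF1 (log2 difference -0.24 ± 1.37, adjusted p = 0.912), below DF1_1 and DF1_2 and above DF1_3. DDIT3, the factor CHOP of prolonged stress, was called, at 314, 362 and 164 in DF1 and 621, 639 and 597 in SDF1 (log2 difference 1.22 ± 0.30, adjusted p = 0.0295), and lost without DF1_1, SDF1_1, SDF1_2 or SDF1_3 (adjusted p = 0.0622, 0.102, 0.104 and 0.0975). SLC7A11, the cystine transporter, stood at 22.4, 19.6 and 3.32 in DF1 and 162, 161 and 184 in SDF1 (log2 difference 3.73 ± 0.67, adjusted p = 0.011), and its call was lost without SDF1_1, SDF1_2 or SDF1_3 (adjusted p = 0.0532, 0.0521 and 0.0564). For the aminoacyl-tRNA synthetases and their scaffold (23 listed, 22 in the table and 22 past the filter), many of which ATF4 also induces, 3 of 22 tested members (13.6%) rose and 7 (31.8%) fell. The counts were 12 and 8 without DF1_3, and 3 and 2 in all 6 fits, and the medians were 0.20, 0.12 and -0.20 against DF1_1, DF1_2 and DF1_3. HARS, which charges histidine tRNA, rose, at 761, 792 and 883 in DF1 and 1419, 1414 and 1387 in SDF1 (log2 difference 0.80 ± 0.091), and WARS, which charges tryptophan tRNA, at 770.3, 665 and 917 in DF1 and 1607, 1576 and 1587 in SDF1 (log2 difference 1.03 ± 0.13). LARS, which charges leucine tRNA, fell, at 1387, 1393 and 1642 in DF1 and 769.6, 826 and 804 in SDF1 (log2 difference -0.88 ± 0.10).

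The unfolded protein response, which answers misfolding in the endoplasmic reticulum, had calls in both directions. Of its list (43 listed, 41 in the table and 41 past the filter) 10 of 41 tested members (24.4%) rose and 6 (14.6%) fell, and the counts were 22 and 13 without DF1_3, and 7 and 2 in all 6 fits, with medians of 0.21, 0.20 and -0.32 against DF1_1, DF1_2 and DF1_3. Among the rises were genes of degradation and sensing. HERPUD1 and SEL1L, parts of the machinery that removes misfolded proteins, stood at 918, 889 and 941 in DF1 and 2307, 2384 and 2369 in SDF1 (log2 difference 1.36 ± 0.078, adjusted p = 7.58e-04) and 627, 576 and 535 in DF1 and 1163, 1160.3 and 1197 in SDF1 (log2 difference 1.02 ± 0.094). ERN1, the sensor IRE1, stood at 556, 547 and 582 in DF1 and 1144, 1165 and 1132 in SDF1 (log2 difference 1.03 ± 0.079), and XBP1, whose RNA it splices, at 1611, 1711 and 1321 in DF1 and 2782, 2737 and 2845 in SDF1 (log2 difference 0.86 ± 0.12). SEC61A1, the channel for entry of new proteins, fell, at 3048, 2864 and 3892 in DF1 and 1213, 1189.8 and 1164 in SDF1 (log2 difference -1.44 ± 0.14). HSPA5, the main chaperone of the compartment, was not called, at 8430.4, 8496 and 18044 in DF1 and 9691, 9911 and 9609 in SDF1 (log2 difference -0.16 ± 0.32, adjusted p = 0.728).

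Heat shock and chaperone genes fell more often than the background. Of the heat shock list (40 listed, 37 in the table and 34 past the filter) 3 of 34 tested members (8.82%) rose and 16 (47.1%) fell, with a median log2 difference of -0.58, and -0.46, -0.40 and -0.62 against DF1_1, DF1_2 and DF1_3. The counts were 7 and 23 without DF1_3, and 2 and 7 in all 6 fits. HSPA8, the constitutive HSP70, stood at 19476, 20105 and 29325 in DF1 and 6616, 6778 and 6621 in SDF1 (log2 difference -1.76 ± 0.18, adjusted p = 0.00239). TCP1, a subunit of the chaperonin that folds actin and tubulin, stood at 4650.4, 4834 and 4469 in DF1 and 2469.7, 2436 and 2409 in SDF1 (log2 difference -0.93 ± 0.084, adjusted p = 0.0015), and CCT2, another subunit, at 4515, 4418 and 3959 in DF1 and 2548, 2557 and 2572 in SDF1 (log2 difference -0.75 ± 0.092). DNAJA2, a cochaperone of HSP70, stood at 2334, 2239 and 2408 in DF1 and 1313, 1343 and 1268 in SDF1 (log2 difference -0.83 ± 0.082). HSP90AB1 stood at 5389.8, 5894 and 2634 in DF1 and 1301, 1345 and 1282 in SDF1 (log2 difference -1.74 ± 0.32, adjusted p = 0.0113), and its call was lost without SDF1_1, SDF1_2 or SDF1_3 (adjusted p = 0.055, 0.0528 and 0.0564). HSPB9, a small heat shock protein, rose, at 89.7, 97.4 and 74.1 in DF1 and 222, 239 and 224 in SDF1 (log2 difference 1.39 ± 0.14).

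For ribosomal protein genes the direction depended on the DF1 library. Of the list (73 listed, 64 in the table and 64 past the filter) 0 of 64 tested members (0%) rose and 11 (17.2%) fell, and 58 of 64 fell without DF1_3, where 33.6% of all genes did. The median log2 difference was -0.54, -0.54 and 0.21 against DF1_1, DF1_2 and DF1_3. SDF1 thus lay below DF1_1 and DF1_2 and, in the median, above DF1_3, and 3 falls held in every fit that left out 1 library. RPL32 stood at 7970.2, 8351 and 4894 in DF1 and 2505, 2507 and 2535 in SDF1 (log2 difference -1.45 ± 0.22, adjusted p = 0.00646), RPL21 at 10010.3, 9609.7 and 8576 in DF1 and 5475, 5628 and 5002 in SDF1 (log2 difference -0.81 ± 0.11) and RPL11 at 4147, 4176 and 4771 in DF1 and 2706, 2755 and 2638 in SDF1 (log2 difference -0.69 ± 0.097), all of the large subunit. Many ribosomal protein genes have near-identical copies in a genome, so reads may be divided among them.

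Nuclear genes of the respiratory chain had the same dependence. Of the list (63 listed, 59 in the table and 59 past the filter) 1 of 59 tested members (1.69%) rose and 12 (20.3%) fell, and the counts were 7 and 42 without DF1_3, and 0 and 5 in all 6 fits. Their medians were -0.38, -0.40 and 0.11 against DF1_1, DF1_2 and DF1_3. CYCS, which encodes cytochrome c, stood at 2533, 2239.7 and 2743 in DF1 and 1143, 1145 and 1163 in SDF1 (log2 difference -1.12 ± 0.10, adjusted p = 0.0016). COX4I1, a subunit of cytochrome c oxidase, stood at 3235, 3338 and 2757 in DF1 and 1803, 1804 and 1774 in SDF1 (log2 difference -0.79 ± 0.10). NDUFS6 and NDUFV2, of complex I, stood at 419, 420.1 and 428 in DF1 and 261, 247 and 225 in SDF1 (log2 difference -0.79 ± 0.097) and 1457, 1475 and 1349 in DF1 and 905, 924 and 863 in SDF1 (log2 difference -0.67 ± 0.085). VDAC1, the main pore of the outer mitochondrial membrane, is no part of the chain and stood at 641, 625 and 677 in DF1 and 77.9, 71.8 and 75.2 in SDF1 (log2 difference -3.09 ± 0.097, adjusted p = 1.88e-04).

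In glycolysis and the response to low oxygen (50 listed, 44 in the table and 40 past the filter) 6 of 40 tested members (15%) rose and 9 (22.5%) fell, and the counts were 13 and 19 without DF1_3, and 4 and 4 in all 6 fits. The falls included enzymes of the main pathway. TPI1, triosephosphate isomerase, stood at 5946, 6383 and 6065 in DF1 and 2903, 2903 and 2960.4 in SDF1 (log2 difference -1.07 ± 0.085, adjusted p = 0.00127). GPI, glucose-6-phosphate isomerase, stood at 8450.3, 8709 and 6758 in DF1 and 3196, 3242 and 3351 in SDF1 (log2 difference -1.28 ± 0.13). PGAM1, phosphoglycerate mutase, stood at 17647, 20982 and 19389 in DF1 and 10560.4, 10339 and 11111 in SDF1 (log2 difference -0.85 ± 0.11). PFKFB4, which makes an activator of glycolysis, rose, at 6.48, 8.47 and 9.4 in DF1 and 70.2, 82.4 and 95.3 in SDF1 (log2 difference 3.20 ± 0.23). VHL, whose product marks hypoxia-inducible factors for destruction, fell, at 966, 982 and 958 in DF1 and 423, 447 and 448 in SDF1 (log2 difference -1.14 ± 0.080).

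Lipid genes were near or below the background. For cholesterol synthesis and uptake (39 listed, 35 in the table and 33 past the filter) 2 of 33 tested members (6.06%) rose and 4 (12.1%) fell, and the counts were 10 and 11 without DF1_3, and 0 and 2 in all 6 fits. ACAT2, a thiolase of the first step, stood at 1250.3, 1324 and 1282 in DF1 and 435, 439 and 463 in SDF1 (log2 difference -1.53 ± 0.081, adjusted p = 7.39e-04), and STARD4, a carrier of cholesterol, at 646, 493 and 1176 in DF1 and 188, 196 and 187 in SDF1 (log2 difference -1.92 ± 0.32). For fatty acid synthesis (32 listed, 31 in the table and 28 past the filter) 4 of 28 tested members (14.3%) rose and 3 (10.7%) fell, and the counts were 12 and 10 without DF1_3, and 3 and 1 in all 6 fits, with medians of 0.11, 0.15 and -0.27 against DF1_1, DF1_2 and DF1_3. ACSS2, which activates acetate, stood at 610.2, 656 and 695 in DF1 and 1299.8, 1311 and 1271 in SDF1 (log2 difference 0.99 ± 0.088). FASN, fatty acid synthase, stood at 2015, 2041 and 5045 in DF1 and 1552, 1614 and 1612 in SDF1 (log2 difference -0.79 ± 0.37, adjusted p = 0.165). ACSL3 and ACSL5, which activate fatty acids, moved apart, at 776, 748 and 858 in DF1 and 480.0, 519 and 522 in SDF1 (log2 difference -0.65 ± 0.096) and 29.4, 25.9 and 84 in DF1 and 285, 289.6 and 274 in SDF1 (log2 difference 2.79 ± 0.45).

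Among genes of lipid droplets, uptake and oxidation (54 listed, 44 in the table and 33 past the filter) 8 of 33 tested members (24.2%) rose and 3 (9.09%) fell, and the counts were 14 and 10 without DF1_3, and 0 and 1 in all 6 fits. The median log2 difference was 0.12, or -0.035 after quantile normalization, so its sign depends on the scaling. PLIN4, a coat protein of droplets, fell, at 13, 14.3 and 24.3 in DF1 and 0.364, 0.711 and 0.372 in SDF1 (log2 difference -3.57 ± 0.32). PLIN2, the coat protein found in most cells, stood at 556, 529 and 585 in DF1 and 769, 758 and 783 in SDF1 (log2 difference 0.47 ± 0.085, adjusted p = 0.0108), and its call was lost without SDF1_1, SDF1_2 or SDF1_3 (adjusted p = 0.0696, 0.066 and 0.0712). CPT1A, the gate of mitochondrial fatty acid oxidation, stood at 250.3, 226 and 241 in DF1 and 166, 157 and 149.7 in SDF1 (log2 difference -0.60 ± 0.10, adjusted p = 0.00963), lost without SDF1_1, SDF1_2 or SDF1_3 (adjusted p = 0.0514, 0.0621 and 0.0642). PPARG, the master factor of fat cells, stood at 39.4, 37 and 0 in DF1 and 76.4, 77.5 and 65.1 in SDF1 (log2 difference 2.68 ± 1.48, adjusted p = 0.223) and was not called. The labels' oleic acid protocol was named above, and its part in these values was not tested.

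Genes for DNA replication fell more often than the background. Of the S-phase list (64 listed, 59 in the table and 59 past the filter) 3 of 59 tested members (5.08%) rose and 19 (32.2%) fell, with medians of -0.094, -0.27 and -0.38 against DF1_1, DF1_2 and DF1_3. The counts were 11 and 32 without DF1_3, and 1 and 6 in all 6 fits. CCNE2, a cyclin of the start of S phase, stood at 219, 206 and 209.5 in DF1 and 61.5, 60.8 and 55.1 in SDF1 (log2 difference -1.82 ± 0.12, adjusted p = 8.86e-04). MCM2, of the replicative helicase, stood at 1438, 1612 and 1432 in DF1 and 698, 673 and 683 in SDF1 (log2 difference -1.12 ± 0.088, adjusted p = 0.00125), and GINS2, which binds that helicase, at 279, 287 and 297 in DF1 and 127, 128 and 137 in SDF1 (log2 difference -1.13 ± 0.098). RRM1, of ribonucleotide reductase, stood at 3547, 4031 and 3541 in DF1 and 2183, 2065 and 2179 in SDF1 (log2 difference -0.79 ± 0.095). CDK2, the kinase that CCNE2 binds, went the other way, at 1661, 2117 and 1926 in DF1 and 3348, 3235 and 3489.8 in SDF1 (log2 difference 0.83 ± 0.12).

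In the fit of 6 libraries, though not without DF1_3, mitosis genes were near the background as a list. Of them (70 listed, 57 in the table and 57 past the filter) 10 of 57 tested members (17.5%) rose and 5 (8.77%) fell, and the counts were 39 and 8 without DF1_3, and 3 and 1 in all 6 fits. Their medians were 0.35, 0.40 and -0.12 against DF1_1, DF1_2 and DF1_3, so the sign depends on the DF1 library. ESPL1, the separase that parts sister chromatids, stood at 583, 696 and 651 in DF1 and 1700.1, 1636 and 1736 in SDF1 (log2 difference 1.40 ± 0.099, adjusted p = 9.95e-04). PLK1, a mitotic kinase, stood at 2453, 2732 and 2609.9 in DF1 and 4129.8, 4206 and 4385 in SDF1 (log2 difference 0.71 ± 0.090). CENPA, the histone of centromeres, stood at 97.7, 111 and 175 in DF1 and 345, 359.5 and 329 in SDF1 (log2 difference 1.47 ± 0.23). CDC25A, a phosphatase that opens S phase, fell, at 219, 263 and 309.6 in DF1 and 108, 116 and 111 in SDF1 (log2 difference -1.22 ± 0.15). MKI67, the common proliferation marker, stood at 2817, 2395 and 3019 in DF1 and 2953, 2788 and 2693 in SDF1 (log2 difference 0.041 ± 0.12, adjusted p = 0.819), with the groups overlapping. The labels give no doubling time for DF1 or SDF1.

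Inhibitors of the cycle and genes of the DNA damage response had members at both ends. Of the list (49 listed, 44 in the table and 44 past the filter) 14 of 44 tested members (31.8%) rose and 5 (11.4%) fell, and the counts were 21 and 12 without DF1_3, and 3 and 3 in all 6 fits. CDKN2B, the inhibitor p15, stood at 23.9, 46 and 14.9 in DF1 and 340.2, 314 and 364 in SDF1 (log2 difference 3.68 ± 0.40, adjusted p = 0.00261). CDKN1A, the inhibitor p21, stood at 47.9, 50.8 and 35.9 in DF1 and 13.1, 12.8 and 11.5 in SDF1 (log2 difference -1.75 ± 0.22). CCND2, a cyclin of G1, stood at 798, 760.3 and 709 in DF1 and 446, 443 and 442 in SDF1 (log2 difference -0.77 ± 0.088). MDM2, a ubiquitin ligase, stood at 212, 151 and 103 in DF1 and 357, 332 and 345 in SDF1 (log2 difference 1.21 ± 0.26, adjusted p = 0.0202), with the call lost without DF1_2, SDF1_1, SDF1_2 or SDF1_3 (adjusted p = 0.0571, 0.0837, 0.0759 and 0.0812). CDKN2A stood at 5691, 6208 and 3918 in DF1 and 4976, 4896 and 5079 in SDF1 (log2 difference -0.054 ± 0.19, adjusted p = 0.852) and was not called.

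Apoptosis genes (43 listed, 39 in the table and 38 past the filter) were near the background, since 7 of 38 tested members (18.4%) rose and 4 (10.5%) fell, and the counts were 12 and 15 without DF1_3, and 4 and 2 in all 6 fits. The median log2 difference was 0.13, or -0.11 after quantile normalization, so its sign depends on the scaling. BCL2L1, which encodes the survival protein BCL-XL, rose, at 2213, 2475 and 2099 in DF1 and 3919, 3922 and 4078 in SDF1 (log2 difference 0.82 ± 0.098, adjusted p = 0.00333), while its relative BCL2 fell, at 142, 123 and 86.2 in DF1 and 40.8, 42.3 and 48 in SDF1 (log2 difference -1.38 ± 0.22). TNFRSF10B, a death receptor, stood at 434, 467 and 372 in DF1 and 1153, 1175 and 1188 in SDF1 (log2 difference 1.47 ± 0.11), and BID, which links such receptors to mitochondria, at 458, 433 and 475 in DF1 and 723, 755 and 761 in SDF1 (log2 difference 0.71 ± 0.086).

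**Figure D4:**
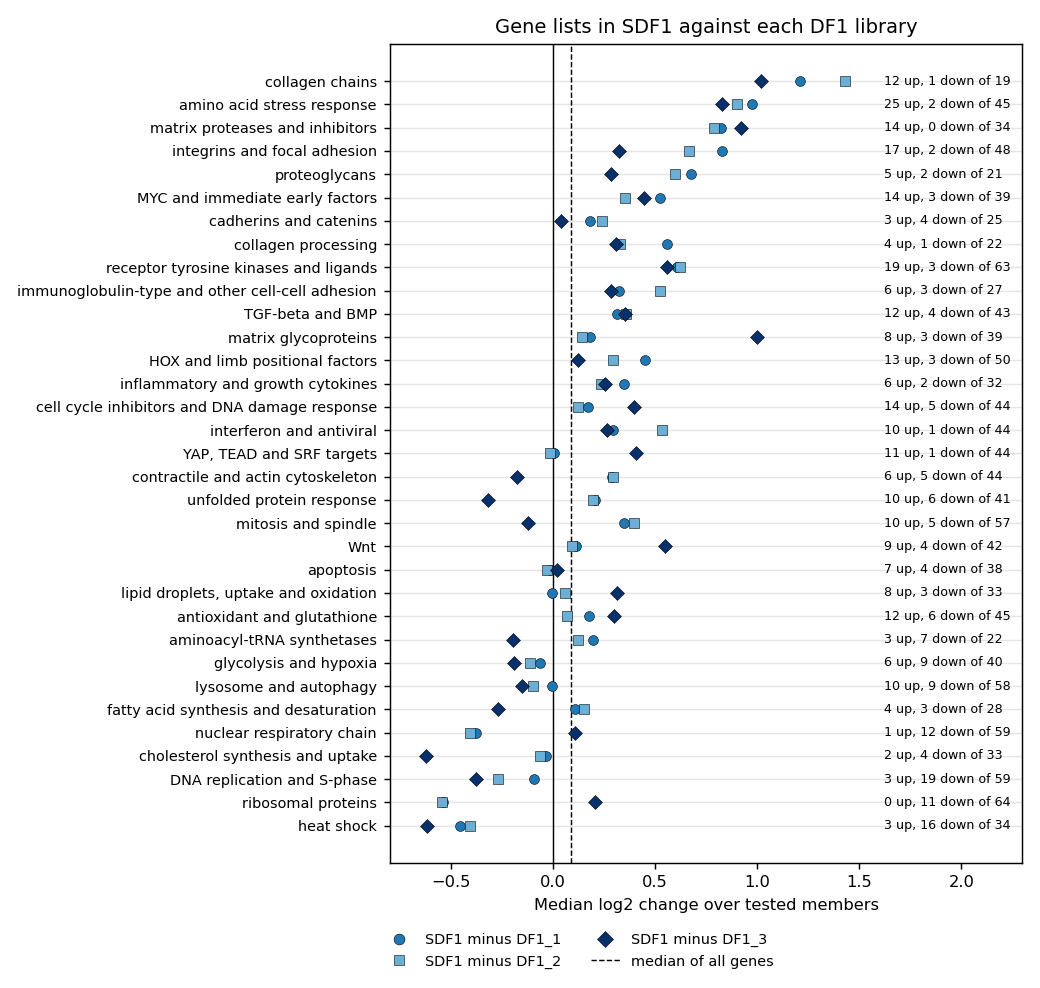
Median log2 difference over the tested members of each list (x axis), as the mean of SDF1 minus DF1_1 (circle), DF1_2 (square) or DF1_3 (diamond), with the members called up and down at the right and the median of all genes as a dashed line. The diamonds fall on the other side of 0 from the circles and squares for ribosomal proteins, the respiratory chain, the unfolded protein response and mitosis, among others, while collagen chains, the amino acid response and heat shock keep their side.

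Genes against oxidants and of the lysosome had calls in both directions. In the defence against oxidants (52 listed, 49 in the table and 45 past the filter) 12 of 45 tested members (26.7%) rose and 6 (13.3%) fell, and the counts were 22 and 13 without DF1_3, and 5 and 3 in all 6 fits. TXNRD1, the cytosolic thioredoxin reductase, stood at 678, 648 and 1130.0 in DF1 and 3410.0, 3353 and 3433 in SDF1 (log2 difference 2.10 ± 0.23). BACH1, a repressor of NRF2 targets, stood at 201, 153 and 202 in DF1 and 611, 569.5 and 579.6 in SDF1 (log2 difference 1.67 ± 0.14, adjusted p = 0.00137), and KEAP1, which destroys NRF2, at 221, 285 and 268 in DF1 and 522, 487 and 501 in SDF1 (log2 difference 0.97 ± 0.12). GCLM, a subunit of the enzyme that makes glutathione's precursor, fell, at 3966, 3796 and 4296 in DF1 and 2459, 2428 and 2416 in SDF1 (log2 difference -0.72 ± 0.090), as did TALDO1, of the pentose phosphate pathway, at 2618, 2670.4 and 2584 in DF1 and 1496, 1467 and 1469 in SDF1 (log2 difference -0.83 ± 0.077). For lysosome and autophagy (64 listed, 58 in the table and 58 past the filter) 10 of 58 tested members (17.2%) rose and 9 (15.5%) fell, and the counts were 20 and 22 without DF1_3, and 3 and 2 in all 6 fits. PSAP, the precursor of the saposins, stood at 4945, 4777 and 5796 in DF1 and 10194, 10184 and 10429 in SDF1 (log2 difference 0.99 ± 0.11, adjusted p = 0.00278). GABARAPL2, of the ATG8 family on autophagosomes, fell, at 540.4, 617 and 619 in DF1 and 310.4, 308 and 317 in SDF1 (log2 difference -0.92 ± 0.096).

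Positional genes keep a memory of the body site from which a fibroblast came. Of the HOX and limb factors (77 listed, 73 in the table and 50 past the filter) 13 of 50 tested members (26%) rose and 3 (6%) fell, and the counts were 27 and 11 without DF1_3, and 4 and 1 in all 6 fits. HOXA9 stood at 495, 486 and 451 in DF1 and 252, 267 and 207 in SDF1 (log2 difference -0.98 ± 0.13, adjusted p = 0.00397). MSX2 and TBX3, factors of limb outgrowth, stood at 119.7, 119 and 118 in DF1 and 207, 220.3 and 220.0 in SDF1 (log2 difference 0.86 ± 0.10) and 257, 288 and 345 in DF1 and 557, 589 and 535 in SDF1 (log2 difference 0.92 ± 0.13). TBX15, a T-box factor of mesenchyme, stood at 19.4, 16.4 and 237 in DF1 and 0.364, 0.711 and 0.745 in SDF1 (log2 difference -4.78 ± 1.04, adjusted p = 0.0196), and its call was lost without SDF1_1, SDF1_2 or SDF1_3 (adjusted p = 0.0794, 0.0735 and 0.0741). SDF1 had almost none of it and DF1_3 more than 10 times the level of DF1_1 and DF1_2.

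All 4 W-linked genes in the table rose, where W is the chromosome that only female birds carry. HINTW stood at 2650.3, 2747 and 5494 in DF1 and 13452, 13318 and 13909 in SDF1 (log2 difference 1.99 ± 0.30, adjusted p = 0.0062) and SPIN1W at 244, 216 and 160.3 in DF1 and 447, 429 and 413 in SDF1 (log2 difference 1.07 ± 0.17). ATP5A1W stood at 186, 199 and 1086 in DF1 and 2187, 2092 and 2213 in SDF1 (log2 difference 2.65 ± 0.69, adjusted p = 0.0351) and UBE2R2L at 25.4, 18.5 and 222 in DF1 and 473, 469 and 508 in SDF1 (log2 difference 3.31 ± 0.93, adjusted p = 0.0423), and these calls were lost, for ATP5A1W without DF1_1, DF1_2, SDF1_1, SDF1_2 or SDF1_3 (adjusted p = 0.103, 0.0981, 0.111, 0.107 and 0.113) and for UBE2R2L without DF1_1, DF1_2, SDF1_1, SDF1_2 or SDF1_3 (adjusted p = 0.127, 0.105, 0.125, 0.124 and 0.13). With edgeR the adjusted p was 0.0909 for ATP5A1W and 0.121 for UBE2R2L. Each has a close relative on the Z chromosome or elsewhere, so reads may be divided between copies and these values are uncertain. HINTW stood at 13673 to 14475 in CF2, 6294 to 9047 in SCF2, 12641 to 13533 in CF4 and 13282 to 25584 in SCF4. DF1_3 was between the other DF1 libraries and SDF1 for HINTW, ATP5A1W and UBE2R2L.

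The genes that set DF1_3 farthest from DF1_1 and DF1_2 were near 0 on 1 side and abundant on the other. CCK, the peptide cholecystokinin, stood at 29.9, 32.3 and 6811 in DF1 and at 8.73, 4.62 and 11.2 in SDF1. PAPPA2, a protease of IGF-binding proteins, stood at 12.5, 16.4 and 1823 and 186, 164 and 173, and SLC16A1, a lactate transporter, at 1.99, 4.23 and 661 and 1.46, 2.84 and 1.86. KRTAP10-4, listed under a keratin-associated protein name, stood at 7.48, 11.6 and 2563 and 411, 414 and 411. EDN2, an endothelin, and IGSF3, of the immunoglobulin superfamily, were at 0, 0 and 275 and at 0, 0 and 174 in DF1 and at 0.711 or less in SDF1. Of these 6, SDF1 was near DF1_1 and DF1_2 for SLC16A1, EDN2 and IGSF3, and lay between the libraries for PAPPA2 and KRTAP10-4. For CCK every SDF1 library was more than 2-fold below DF1_1 and DF1_2 as well.

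In the other direction GDPD4, a phosphodiesterase, stood at 1057, 1252 and 0 in DF1 and 4.73, 7.46 and 6.7 in SDF1. TNFRSF19 and TNFSF15, a receptor and a ligand of the tumour necrosis factor family, stood at 679.5, 670.4 and 0 and 1.09, 1.07 and 1.49, and at 257, 251 and 0 and 0, 0 and 0. DIO2, which activates thyroid hormone, stood at 296, 244 and 0 and 9.1, 6.04 and 5.21, and CYTL1, a small secreted protein, at 388, 379.9 and 0.553 and 9.83, 8.53 and 11.5. SDF1 was closer to DF1_3 than to DF1_1 and DF1_2 in these 5, though above DF1_3 in all but TNFSF15. EXOSC6, of the RNA exosome, was the exception, at 577, 699 and 0.553 in DF1 and 389, 358 and 411 in SDF1.

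How the change in DF1 compared with that in lines 2 and 4 was tested as SDF1 minus DF1 against the mean of SCF minus CF in both lines, with 18 libraries. This fit uses a common estimate of the spread for all groups. DF1 libraries spread more than those of the other attached lines, so its SE and p-values may be too small. The suspension and attached libraries of lines 2 and 4 belong to different deposited sets, so set and growth state cannot be told apart there. Nor can growth state and culture history be told apart between DF1 and SDF1. The difference was called for 5570 of 12055 genes (46.2%), 2734 higher in DF1's change (22.7%) and 2836 lower (23.5%). Genes called in both tests were 2850 (24.9% of 11459), whatever their name or level. The named ones with a mean of 50 or more normalized reads in DF1 or SDF1 included 850 with a sign opposite to both lines. For the lines only the sign of the change counted, at any size and without a test within either line. Of these 850, 421 were higher in SDF1. A call in the difference favours opposite signs, so this count is a description. It was not set against a share over all genes. Of 19 tested collagen chains the difference was higher for 9 and lower for 3, and other lists were more one-sided. Of 48 genes of integrins and focal adhesions it was higher for 28 and lower for 3. Of 45 genes of the amino acid response these counts were 29 and 2. They were 4 and 31 of 59 replication genes, and 0 and 27 of 59 respiratory chain genes. These list counts include DF1_3 and are not given without it, where the difference was called for 7543 genes in all. The respiratory chain medians of SDF1 were -0.38, -0.40 and 0.11 against DF1_1, DF1_2 and DF1_3, so their sign depended on the DF1 library. The medians of the other lists named here kept their sign.

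The genes named next were chosen for a large difference and for a change opposite in sign to both lines. That contrast is thus part of the choice. Several of the largest rises in SDF1 were falls in lines 2 and 4. TUBB3 changed by -7.70 in line 2 and -8.07 in line 4, a difference of 13.89 ± 0.54 (adjusted p = 5.53e-11). Its levels there were 459 to 486 in CF2, 0.436 to 2.54 in SCF2, 438 to 457 in CF4 and 0 to 1.72 in SCF4. S100A4 changed by -6.58 in line 2 and -6.04 in line 4, a difference of 12.00 ± 0.34 (adjusted p = 2.41e-12), with 1028 to 1154 in CF2, 5.23 to 15.9 in SCF2, 457 to 509 in CF4 and 4.28 to 8.7 in SCF4. CKS1B changed by -4.53 in line 2 and -4.43 in line 4, a difference of 11.12 ± 0.61 (adjusted p = 3.43e-09), with 22.2 to 36.4 in CF2, 0 to 1.28 in SCF2, 15.4 to 25.6 in CF4 and 0 in all of SCF4. GSTA3 changed by -6.24 in line 2 and -3.40 in line 4, a difference of 9.92 ± 0.35 (adjusted p = 2.61e-11). CSNK2B, the regulatory subunit of casein kinase 2, stood at 23.4, 21.2 and 16.6 in DF1 and 161, 163 and 145 in SDF1 (log2 difference 2.89 ± 0.19, adjusted p = 8.86e-04) and changed by -5.92 in line 2 and -5.03 in line 4, a difference of 8.36 ± 0.35 (adjusted p = 1.43e-10). ADH6 changed by -0.59 in line 2 and -1.71 in line 4, a difference of 6.79 ± 0.51 (adjusted p = 7.36e-08). The attached libraries of lines 2 and 4 thus stood with SDF1, and their suspension libraries with DF1, in TUBB3, S100A4, GSTA3 and CSNK2B.

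Among the falls, SDK2, an adhesion molecule of the sidekick family, stood at 269, 318 and 84 in DF1 and 16.7, 16.3 and 13.8 in SDF1 (log2 difference -3.55 ± 0.52, adjusted p = 0.00593) and changed by 6.54 in line 2 and 0.79 in line 4, a difference of -7.21 ± 0.42 (adjusted p = 6.83e-09). B3GNT2, which extends sugar chains, stood at 263, 246 and 41.5 in DF1 and 14.2, 8.53 and 13 in SDF1 (log2 difference -3.47 ± 0.75, adjusted p = 0.0195), lost without DF1_1, DF1_2, SDF1_1, SDF1_2 or SDF1_3 (adjusted p = 0.0652, 0.0606, 0.0692, 0.0802 and 0.0725), and differed from the lines by -5.52 ± 0.61 (adjusted p = 3.17e-06). VDAC1 changed by 2.08 in line 2 and 1.11 in line 4, a difference of -4.69 ± 0.15 (adjusted p = 4.76e-12), and CRYL1, a crystallin-related dehydrogenase, stood at 116, 99.5 and 192 in DF1 and 6.19, 3.91 and 4.1 in SDF1 (log2 difference -4.54 ± 0.32, adjusted p = 0.00105) and differed by -5.21 ± 0.46 (adjusted p = 3.63e-07). GPC1 differed by -4.67 ± 0.48 (adjusted p = 1.59e-06) and SLC25A15 by -5.40 ± 0.78 (adjusted p = 4.68e-05). For CRYL1, GPC1 and SLC25A15 most of the difference was the fall in DF1 itself, and the mean change in the lines was small beside it.

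**Figure D5:**
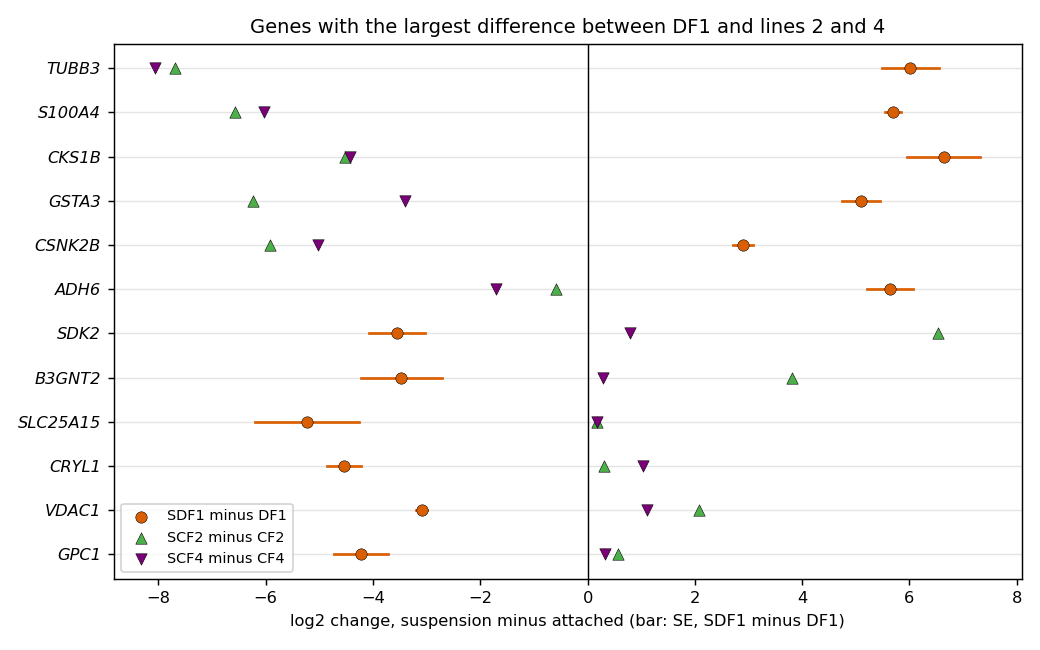
Log2 change from attached to suspension (x axis) for DF1 (circle, bar: SE) and for lines 2 and 4 (triangles). The genes are those with the largest difference among genes chosen for a change in DF1 opposite in sign to both lines. TUBB3, S100A4, CKS1B, GSTA3 and CSNK2B lie to the right of 0 in DF1 and far to the left in both lines.

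Some genes separated whole groups across these 18 libraries, a count noticed and made after the values were seen and given without a test. In 119 genes (0.987% of 12055) every SDF1 library was more than 2-fold above every other library, led by FOS, CHAC1, CKLF and MST1. CKLF, a chemokine-like factor, stood at 0.499, 1.06 and 0.553 in DF1 and 34.6, 32.7 and 32.8 in SDF1 (log2 difference 4.35 ± 0.24) and MST1, a ligand of the receptor RON, at 33.4, 28 and 33.2 in DF1 and 323, 325 and 335 in SDF1 (log2 difference 3.34 ± 0.13). In 9 genes (0.0747%) SDF1 was below all others, among them TFRC, the transferrin receptor, at 1798, 1917 and 1303 in DF1 and 245, 232 and 241 in SDF1 (log2 difference -2.78 ± 0.16), and HSPA8, STARD4 and ACAT2, given above. DF1 alone was above all others in 46 genes (0.382%), led by CHMP4C and CDH5, and below all others in 39 (0.324%), led by SYNPO2 and C6H10orf107. ALDH1A1, which makes retinoic acid, was 1 of the 39, at 6.48, 4.76 and 19.3 in DF1 and 172, 169 and 173 in SDF1 (log2 difference 4.17 ± 0.49) and 225 to 237 in CF2, 149 to 174 in SCF2, 124 to 164 in CF4 and 203 to 208 in SCF4. DF1 and SDF1 together were above both other lines in 16 genes (0.133%) and below them in 7 (0.0581%), which include FGF10, a limb growth factor.

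Few genes separated all suspension libraries from all attached ones. In lines 2 and 4 growth state cannot be told apart from the deposited set. DF1_3 also had to lie on the same side as DF1_1 and DF1_2. In 2 genes (0.0166%) all suspension libraries were more than 2-fold above all attached ones, HSPB9 and ADAMTS15, and in 0 the attached ones were above. HSPB9 stood at 50.8 to 59.8 in CF2, 318 to 384 in SCF2, 35.9 to 42.1 in CF4 and 412 to 805 in SCF4 and ADAMTS15 at 3.75 to 5.69 in CF2, 12.4 to 27 in SCF2, 4.18 to 5.17 in CF4 and 13.7 to 18.8 in SCF4. SDF1 with CF2 and CF4 was above DF1 with SCF2 and SCF4 in 17 genes (0.141%), led by TUBB3, S100A4, INPPL1, a lipid phosphatase, and GSTA3, and the reverse held in 0. In these counts more genes met the crossed pattern (17) than the split by growth state (2), and the difference was not tested.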

How the data were processed

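RNA-seq of total RNA was made with the NuGEN Trio kit and paired-end sequencing, per the labels' protocols. Bowtie2, RSEM, DESeq2 and the galGal6 build are named, without roles or versions, per the submitters' processing notes. The authors deposited 1 table of normalized signal per gene symbol, named TPM, whose columns sum to more than TPM would. Each column is whole reads multiplied by 1 value (tolerance 0.01), so reads were recovered, and how that value was set is not given in the labels. Of 14161 rows, 17 are named as a date and were not named here.

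Groups follow the labels. The main test was limma 3.58.1 (trended, robust empirical Bayes) on log2(normalized reads + 1), on genes that reached 1 normalized read in 3 or more libraries of the comparison, with Benjamini-Hochberg adjustment over all genes and a call at an adjusted p below 0.05. The difference from lines 2 and 4 used 1 limma model over 18 libraries. edgeR 4.0.16 and DESeq2 1.42.0 on recovered reads, quantile normalization, other filters, pseudocounts and left-out libraries were alternatives. The code was tested on simulated data with the same spread in all groups and no library set apart. That does not cover a library such as DF1_3. Intervals of read ratios are 95% and cover counting error only.

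Genes named were the 12 rises and 12 falls with the largest change among called, named, non-overlapping genes with a mean of 50 or more in the higher group, up to 4 members per list with the smallest p, members at 0 or uncalled, a list of genes of interest, and the 6 and 6 largest for DF1_3 and for the difference from lines 2 and 4. SRC, FLNA, JUN, SLC38A2, GPT2, XBP1, CCT2, HSP90AB1, GPI, PGAM1, CDK2, TXNRD1, KEAP1, GCLM, TBX15, BCL2, HARS, WARS, LARS and the genes of the 18-library counts were added after their values were seen where that rule does not take them. The comparison, the lists and their members were chosen with earlier results of these data known.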

Additional observations from a re-analysis of the deposited data

Results flagged for a closer look

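SDF1 minus DF1 differed from the mean of SCF minus CF in lines 2 and 4 for 5570 of 12055 genes (46.2%). The test was the interaction term of the limma model over 18 libraries with Benjamini-Hochberg adjustment. The 12 genes below were picked for a call there and in DF1, a large difference and a change opposite in sign to both lines. The change in the lines could be of any size. Their p-values and directions are thus no separate evidence. The difference on the log2 scale was 13.89 ± 0.54 (adjusted p = 5.53e-11) for TUBB3, 12.00 ± 0.34 (adjusted p = 2.41e-12) for S100A4 and 11.12 ± 0.61 (adjusted p = 3.43e-09) for CKS1B. It was 9.92 ± 0.35 (adjusted p = 2.61e-11) for GSTA3, 8.36 ± 0.35 (adjusted p = 1.43e-10) for CSNK2B and 6.79 ± 0.51 (adjusted p = 7.36e-08) for ADH6. In these 6 the 3 SDF1 libraries were above the 3 DF1 libraries, and both lines changed the other way, as the choice required.

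In the other direction it was -7.21 ± 0.42 (adjusted p = 6.83e-09) for SDK2, -5.52 ± 0.61 (adjusted p = 3.17e-06) for B3GNT2 and -5.40 ± 0.78 (adjusted p = 4.68e-05) for SLC25A15. It was -5.21 ± 0.46 (adjusted p = 3.63e-07) for CRYL1, -4.69 ± 0.15 (adjusted p = 4.76e-12) for VDAC1 and -4.67 ± 0.48 (adjusted p = 1.59e-06) for GPC1. In these 6 all SDF1 libraries were below all DF1 libraries. For SLC25A15, CRYL1 and GPC1 most of the difference was the fall in DF1 itself. The suspension libraries of lines 2 and 4 come from another deposited set than their attached libraries, so set and growth state cannot be told apart there. Between DF1 and SDF1, growth state and culture history cannot be told apart either. The model shares a common estimate of the spread among groups, while DF1 libraries spread more than the other attached lines. Its SE and p-values may therefore be too small.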

How the results depend on the processing

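The count of 3619 called genes (2153 higher, 1466 lower) was 3457 with no filter, 3404 with a stricter filter, 3486 with a pseudocount of 0.1, 3502 with equal library totals, 3524 with edgeR, 3816 with quantile normalization and 4576 with DESeq2, where the lower calls were 2405. With CF2 and CF4 in the fit, which then share 1 estimate of the spread, it was 5667 (3251 higher and 2416 lower), and with a minimum log2 change of 1 it was 175. Leaving out 1 library gave 1381 to 8399 (887 to 4544 higher, 494 to 3855 lower), lowest without SDF1_1 and highest without DF1_3. DF1 and SDF1 libraries of the same number did not deviate together (r = -0.00459, -0.0811 and -0.0889), and those of unlike number gave -0.0586 to 0.098. These values show no pairing by number, but with so few libraries they cannot exclude one. A replicate block, which also spends degrees of freedom, gave 1724 (1147 higher and 577 lower). The difference from lines 2 and 4 was called for 5570 genes, 5546 with the replicate block and 4790 to 7543 with 1 library left out. Genes more than 2-fold apart in DF1_3 were 2701, and 824 at 4-fold. Of the counts over 18 libraries, tried at 4-fold after the data were seen, 119 for SDF1 alone became 15, 46 and 39 for DF1 alone 17 and 5, 17 for the crossed pattern 8 and 2 for the growth state 0. Library weights did not converge, so the fit made with them was left out of these counts. The weights were 11.61 for DF1_1, 0.2451 for DF1_2, 0.01944 for DF1_3 and 2.136 to 3.652 for SDF1. Within DF1 that fit rested mostly on DF1_1.

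Some log2 differences of genes that were not called turned sign. MKI67 was -0.0018 after quantile normalization, -0.045 with edgeR, -0.044 with DESeq2 and -0.054 to 0.11 with 1 library left out. With 1 library left out CDKN2A was -0.25 to 0.078, PHGDH -1.88 to 0.63, HSPA5 -0.35 to 0.20, EXOSC6 -0.72 to 3.69 and PAPPA2 -0.027 to 3.51. EXOSC6 was -0.20 with edgeR and -0.20 with DESeq2, KRTAP10-4 -1.17 and PAPPA2 -1.93 with edgeR. The cause was not tested. No called gene named in the text changed sign in any alternative run. At 16.62 to 25 M reads per library, genes with 1 to 3 reads in a group have ratios known only within wide counting intervals.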
